A study of Arabidopsis thaliana with 4 samples.

Results

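The genes described are 8 of the light-sensing pathway of *Arabidopsis thaliana*, taken as a list of loci drawn up with earlier results of these data known: the phytochrome genes *PHYA* (AT1G09570), *PHYD* (AT4G16250) and *PHYE* (AT4G18130), the cryptochrome genes *CRY1* (AT4G08920) and *CRY2* (AT1G04400), and the transcription factor genes *PIF3* (AT1G09530), *HFR1* (AT1G02340) and *HY5* (AT5G11260). They are 8 of the 17099 genes that could be analysed here, out of 37899 nuclear genes of the annotation. Their transcripts were measured by mRNA-Seq in leaves of 3-week-old plants kept in long days, with 1 library for each of 4 genotypes, all in the Col-0 background. They were *suvr5-1 ldl1-2 ldl2* (called here the triple mutant), *ldl1-2 ldl2* (the double mutant), *suvr5-1*, a T-DNA insertion line, and Col-0 as wild type. SUVR5 is a SET-domain protein needed for part of the dimethylation of H3K9, and LDL1 and LDL2 are lysine demethylases acting on H3K4. The comparisons ask how far loss of these chromatin factors, alone and together, alters transcript levels. How many plants went into a library and at what hour the leaves were taken is not given in the sources used here.

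Phytochromes are red and far-red light receptors that switch between an inactive and an active form, and cryptochromes are receptors for blue light. In the light both classes restrain the COP1 ubiquitin ligase, which in darkness marks positive factors such as HY5 and HFR1 for degradation, and active phytochromes cause the breakdown of PIF proteins, the bHLH factors that drive elongation growth. In leaves the same pathway reports shade, where PIF activity rises and growth and auxin genes are induced, with HFR1 among them as a brake.

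Reads mapped by the authors numbered between 10406023 and 15083462 per library, and those on the genes analysed here 2990530 in *suvr5-1 ldl1-2 ldl2*, 2585793 in *ldl1-2 ldl2*, 4612377 in *suvr5-1* and 2953437 in Col-0. Levels are given as RPKM, the reads on a gene per kilobase of its merged exons, scaled to the library's reads on genes. Read positions run past the TAIR10.1 ends of chromosomes 1, 2, 3 and 5, so another assembly had been used for mapping, and genes were analysed only in 6 stretches (51.1 Mb, 42.9% of TAIR10.1) where reads lay displaced from annotated exons by -27 to 17 bp. All 8 genes lie inside them. Only 11.6% to 15.7% of the nuclear reads of a library lay at distinct positions, and the 95% intervals given below cover counting error only. Of the mutated genes *LDL2* lies in the stretches, with 5 reads in *suvr5-1 ldl1-2 ldl2*, 8 in *ldl1-2 ldl2*, 26 in *suvr5-1* and 25 in Col-0, so that both libraries carrying *ldl2* were low. *SUVR5* and *LDL1* lie outside the stretches and were not analysed here. The 5 leaf markers in the stretches, of 12 listed, summed to 40597 RPKM in *suvr5-1 ldl1-2 ldl2*, 61123 in *ldl1-2 ldl2*, 64913 in *suvr5-1* and 62846 in Col-0. Most of each sum was *LHCB1.3*, at 26719 RPKM in the triple mutant and 45393 in Col-0. The log2 ratios of the 5 markers between these libraries ran from -0.93 (*GLDP1*) to -0.13 (*CA1*). Floral markers (5 of 8 in the stretches) had 68 reads (14.5 RPKM) in *suvr5-1 ldl1-2 ldl2*, 70 (19.6 RPKM) in *ldl1-2 ldl2*, 42 (6.83 RPKM) in *suvr5-1* and 21 (4.86 RPKM) in Col-0. Root markers (3 of 6) had 60 to 135 reads per library (9.79 to 15.3 RPKM), with *EXPA7* at 0 throughout. The part of these differences in the results was not tested.

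The 8 genes covered a wide range of levels. *CRY1* was the most abundant in each library, at 100 to 145 RPKM, and *CRY2* came next at 58.3 to 78.6 RPKM, with counting intervals that overlapped no neighbour. Among genes with a read, *CRY1* stood above 90.2% to 93.6% in its library. The other 6 lay between 3.52 and 33.0 RPKM, and their order changed with the genotype. In Col-0 it ran *PHYA* (23.1 RPKM), *HY5* (20.5), *HFR1* (11.1), *PHYE* (9.52), *PIF3* (7.97) and *PHYD* (6.28), where only the step between *HY5* and *HFR1* was wider than the counting intervals. In *suvr5-1 ldl1-2 ldl2* it ran *HY5*, *PHYD*, *PHYE*, *PHYA*, *PIF3* and *HFR1*, and *HY5* alone stood clear of its neighbour. *HFR1* followed *CRY2* directly in *suvr5-1* (22.9 RPKM) and was last in the triple mutant (3.52 RPKM). Over the 4 libraries it spanned 6.52-fold, the widest range of the 8, while *CRY2* spanned 1.35-fold.

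**Figure D1:**
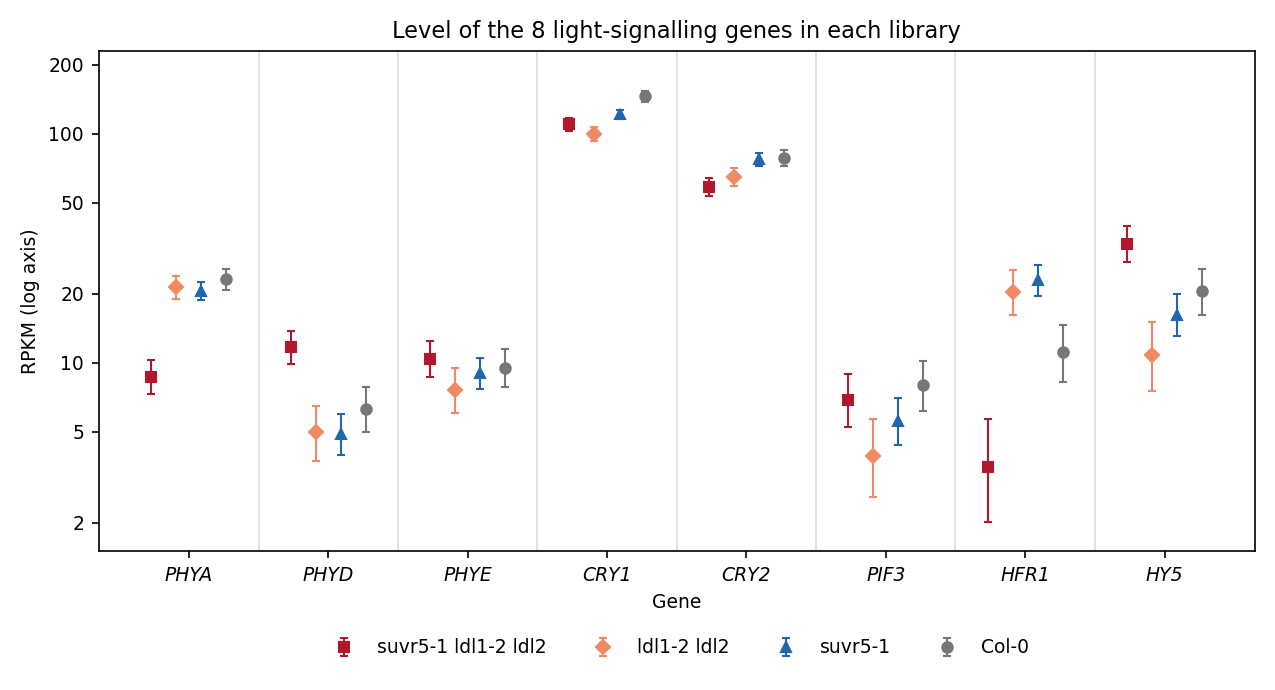
RPKM of the 8 genes in each library on a log axis, with bars for the exact Poisson 95% interval of the reads (counting error only, 1 library per genotype). *PHYA* (8.70 RPKM) and *HFR1* (3.52 RPKM) were lowest in *suvr5-1 ldl1-2 ldl2*, where *PHYD* (11.7 RPKM) and *HY5* (33.0 RPKM) were highest, while *CRY1* and *CRY2* stayed far above the others.

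Reads of a pair of libraries were compared gene by gene with Fisher's exact test, two-sided, and P was adjusted after Benjamini and Hochberg over all genes with reads in at least 1 of the pair. The call upregulated or downregulated was made where RPKM differed over 2 fold with an adjusted P under 0.01. With 1 library per genotype the test sets the reads of one library against those of another and not genotype against genotype, and no call has a replicate check. Against Col-0, 2 of the 8 genes were called in *suvr5-1 ldl1-2 ldl2* (*PHYA* and *HFR1*, both downregulated), where 14.7% of all 12173 genes tested were called, 10.3% upregulated and 4.32% downregulated. In *ldl1-2 ldl2* it was 1 of 8 (*PIF3*, downregulated), against 15.0% of 11825 genes, 9.05% upregulated and 5.95% downregulated. In *suvr5-1* it was also 1 of 8 (*HFR1*, upregulated), against 11.1% of 11878 genes, 5.92% upregulated and 5.15% downregulated. Counts of 1 or 2 among 8 genes are near these backgrounds, and the 3 comparisons share the Col-0 library. The triple mutant differed from *suvr5-1* in 4 of the 8 genes, where 14.8% of 12110 genes were called (10.0% upregulated, 4.72% downregulated), and from *ldl1-2 ldl2* in 4, where 15.5% of 12116 genes were called (9.73% upregulated, 5.82% downregulated). In either comparison *PHYA* and *HFR1* were downregulated and *PHYD* and *HY5* upregulated in the triple mutant, whose library both comparisons share. *HFR1* was the only one of the 8 past 4 fold, against *suvr5-1* (5.28% of all genes past 4 fold) and against *ldl1-2 ldl2* (6.61%). Against Col-0 none of the 8 passed 4 fold, where 6.23% of all genes did in the triple mutant, 6.36% in *ldl1-2 ldl2* and 4.45% in *suvr5-1*. The median log2 ratio of the 8 genes to Col-0 was -0.31 in *suvr5-1 ldl1-2 ldl2*, -0.33 in *ldl1-2 ldl2* and -0.21 in *suvr5-1*, beside 0.12, -0.02 and 0.01 over all genes with reads in both libraries. For the triple mutant it was 0.04 against *suvr5-1* and 0.29 against *ldl1-2 ldl2*, beside 0.16 and 0.12 over all genes. An exact negative binomial test that assumes a dispersion of 0.1, chosen after seeing the data, left none of these 12 calls, with adjusted P of 0.033 for *HFR1* against *suvr5-1*, 0.045 against *ldl1-2 ldl2* and 0.30 or more for the others. The same test called between 107 and 248 of all genes in these comparisons.

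**Figure D2:**
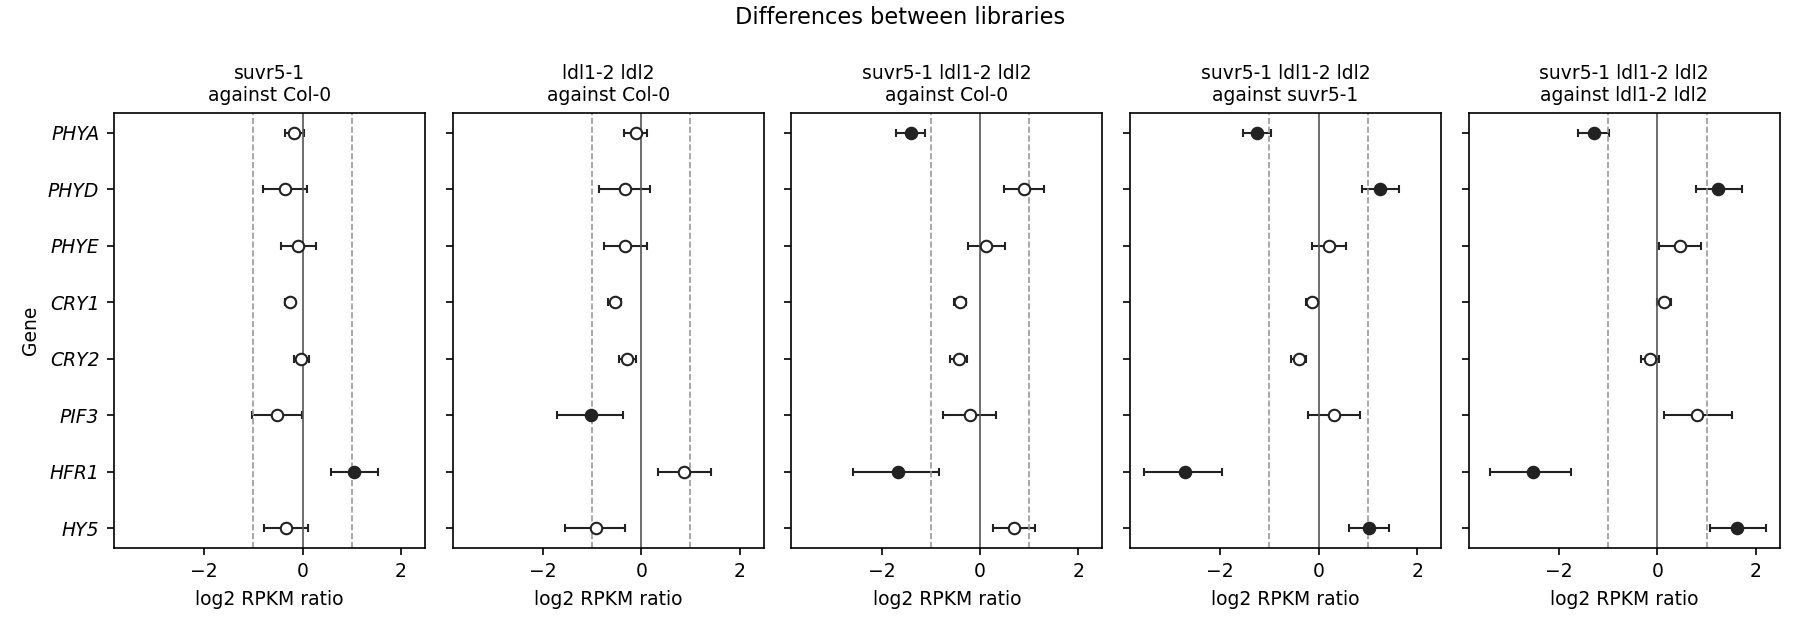
log2 RPKM ratio of each gene in the 5 comparisons, with exact 95% counting intervals, filled where the gene was called (over 2 fold, dashed lines, and adjusted P under 0.01) and open where not. *PHYA* and *HFR1* lie left of the dashed line in each panel with the triple mutant, *PHYD* and *HY5* lie right of 0 in these panels, and *PHYE*, *CRY1* and *CRY2* are open throughout.

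*PHYA*, the receptor for far-red light and for very weak light, whose protein is unstable once activated, was low in the triple mutant and close to wild type in the other genotypes. It lies on chromosome 1 (TAIR10.1, 3095160 to 3100819, minus strand) with 5 merged exons. It had 133 reads (8.70 RPKM) in *suvr5-1 ldl1-2 ldl2*, 282 (21.3 RPKM) in *ldl1-2 ldl2*, 486 (20.6 RPKM) in *suvr5-1* and 349 (23.1 RPKM) in Col-0. The triple mutant thus stood apart from 3 libraries whose counting intervals overlapped. Its log2 ratio to Col-0 was -1.41 (95% interval -1.71 to -1.12, adjusted P = 9.4e-23, Fisher's exact test), while *suvr5-1* (-0.17, -0.37 to 0.04) and *ldl1-2 ldl2* (-0.12, -0.35 to 0.11) did not pass the test. Against *suvr5-1* the triple mutant had -1.24 (-1.53 to -0.96, adjusted P = 5.2e-20, Fisher's exact test) and against *ldl1-2 ldl2* -1.29 (-1.60 to -0.99, adjusted P = 1.7e-17, Fisher's exact test). In the bulk RNA of leaves, fewer cells expressing a gene and less RNA per cell cannot be told apart. The deficit ran along the transcript, but unevenly. The longest coding exon, exon 2, had 19 reads in *suvr5-1 ldl1-2 ldl2*, 86 in *ldl1-2 ldl2*, 107 in *suvr5-1* and 95 in Col-0. The last exon had 50, 71, 196 and 160 reads in the same order. Exon 3 had 12.3 RPKM in the triple mutant against 16.6 RPKM in Col-0. Exon 4, with 32.2 RPKM against 40.7 RPKM, was the least reduced against Col-0. With each position counted once, the ratio to *ldl1-2 ldl2* was -0.95 and no longer a call, and those to *suvr5-1* and Col-0 were -1.26 and -1.27.

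*PHYD*, a light-stable phytochrome that acts beside PHYB in shade responses, went the other way. It lies on chromosome 4 (9195247 to 9199840, minus strand) with 4 exons, and had 147 reads (11.7 RPKM) in *suvr5-1 ldl1-2 ldl2*, 54 (4.97 RPKM) in *ldl1-2 ldl2*, 95 (4.90 RPKM) in *suvr5-1* and 78 (6.28 RPKM) in Col-0. Only the triple mutant was high. Its log2 ratio was 1.25 to *suvr5-1* (0.87 to 1.64, adjusted P = 2.1e-10, Fisher's exact test) and 1.24 to *ldl1-2 ldl2* (0.78 to 1.71, adjusted P = 1.4e-07, Fisher's exact test). To Col-0 it was 0.90 (0.49 to 1.31, adjusted P = 3.8e-05, Fisher's exact test), under 2 fold and so not a call, although on coding exons it was 1.23 and a call. In each of the 4 exons the triple mutant had the highest RPKM of the libraries, with exon 2 at 23 reads, against 2 in Col-0. *PHYD* resembles *PHYB*, which lies outside the stretches, and how the authors treated reads matching more than 1 place is not given. Against *suvr5-1*, nuclear reads as library size gave 0.96 and each position counted once 0.99, both just under the call.

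*PHYE*, another light-stable phytochrome, varied least of the phytochromes. It lies on chromosome 4 (10042137 to 10046346, minus strand), sharing 60 exon bases with the neighbouring *SSP4b* (AT4G18140), and had 122 reads (10.4 RPKM) in *suvr5-1 ldl1-2 ldl2*, 77 (7.61 RPKM) in *ldl1-2 ldl2*, 162 (8.98 RPKM) in *suvr5-1* and 110 (9.52 RPKM) in Col-0. Neighbouring levels overlapped in their counting intervals. The widest difference was that between the triple and the double mutant, a log2 ratio of 0.45 (0.03 to 0.89, adjusted P = 0.077, Fisher's exact test), and against Col-0 the intervals of the 3 mutants lay between -0.76 and 0.52. Those intervals leave out a 2-fold difference in the reads of these libraries.

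*CRY1*, the cryptochrome that mainly acts in strong blue light during seedling development, was never called. It lies on chromosome 4 (5723651 to 5727268, plus strand) and had 991 reads (110 RPKM) in *suvr5-1 ldl1-2 ldl2*, 781 (100 RPKM) in *ldl1-2 ldl2*, 1689 (121 RPKM) in *suvr5-1* and 1295 (145 RPKM) in Col-0. Each mutant was below Col-0, by less than 2 fold. With so many reads the log2 ratios of -0.40 (-0.52 to -0.28) in *suvr5-1 ldl1-2 ldl2*, -0.54 (-0.67 to -0.41) in *ldl1-2 ldl2* and -0.26 (-0.37 to -0.15) in *suvr5-1* had adjusted P of 2.6e-10, 1.6e-15 and 1.1e-05 by Fisher's exact test, but with nuclear reads as library size the ratio of *suvr5-1* was 0.01. Reads were unevenly lower along the gene. In exon 4, which is nearly all 3′ untranslated, the levels were 240 RPKM in *suvr5-1 ldl1-2 ldl2*, 270 in *ldl1-2 ldl2*, 297 in *suvr5-1* and 441 in Col-0. In exon 3, which holds most of the coding sequence, they were 148, 123, 160 and 167 RPKM in the same order, so the gap to Col-0 was wider at the 3′ end.

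*CRY2*, the blue light receptor best known for day-length control of flowering, lies on chromosome 1 (1185512 to 1188696, minus strand). It had 476 reads (58.3 RPKM) in *suvr5-1 ldl1-2 ldl2*, 456 (64.6 RPKM) in *ldl1-2 ldl2*, 973 (77.3 RPKM) in *suvr5-1* and 633 (78.6 RPKM) in Col-0. The *suvr5-1* and Col-0 libraries were alike in level, with a log2 ratio of -0.02 (-0.17 to 0.12), though nuclear reads as library size gave 0.24. The triple mutant had -0.43 (-0.60 to -0.26, adjusted P = 5.9e-06, Fisher's exact test) and *ldl1-2 ldl2* -0.28 (-0.46 to -0.11, adjusted P = 0.0059, Fisher's exact test) against Col-0, neither of them a call.

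*PIF3*, the founding member of the phytochrome-interacting bHLH factors, was the gene with the fewest reads over the libraries. It lies on chromosome 1 (3075768 to 3079654, plus strand) with 7 merged exons and had 57 reads (6.90 RPKM) in *suvr5-1 ldl1-2 ldl2*, 28 (3.92 RPKM) in *ldl1-2 ldl2*, 71 (5.57 RPKM) in *suvr5-1* and 65 (7.97 RPKM) in Col-0. Only *ldl1-2 ldl2* was called, with a log2 ratio to Col-0 of -1.02 (-1.72 to -0.36, adjusted P = 0.0063, Fisher's exact test). Its 28 reads lay at 10 positions and on exons 3 and 7 alone, where Col-0 had 47 positions. The call is at the edge of the threshold, since nuclear reads gave -0.98, size factors -0.99, coding exons -0.99 and genes shifted to the right -0.95, all under 2 fold. In *suvr5-1* the log2 ratio to Col-0 was -0.52 (-1.02 to -0.01, adjusted P = 0.11, Fisher's exact test), and the triple mutant had 0.82 against *ldl1-2 ldl2* (0.14 to 1.52, adjusted P = 0.043, Fisher's exact test), which became a call over whole genes and with genes shifted to the left (1.01).

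*HFR1* varied most. It encodes an atypical bHLH protein that binds PIF proteins and keeps them off DNA, and its transcript is itself induced by shade. The gene lies on chromosome 1 (465616 to 467880, minus strand) with 4 merged exons. It had 16 reads (3.52 RPKM) in *suvr5-1 ldl1-2 ldl2*, 80 (20.3 RPKM) in *ldl1-2 ldl2*, 161 (22.9 RPKM) in *suvr5-1* and 50 (11.1 RPKM) in Col-0. Both the single and the double mutant stood above Col-0 and the triple mutant below it, and the counting intervals of *ldl1-2 ldl2* and *suvr5-1* overlapped each other but not those of Col-0 or the triple mutant. The log2 ratio to Col-0 was 1.04 in *suvr5-1* (0.58 to 1.53, adjusted P = 2.2e-05, Fisher's exact test), 0.87 in *ldl1-2 ldl2* (0.34 to 1.41, adjusted P = 0.0032, Fisher's exact test), which is under 2 fold, and -1.66 in *suvr5-1 ldl1-2 ldl2* (-2.57 to -0.83, adjusted P = 0.00010, Fisher's exact test). The triple mutant was 6.52-fold below *suvr5-1* (log2 ratio -2.71, -3.55 to -1.96, adjusted P = 1.9e-18, Fisher's exact test). Against *ldl1-2 ldl2* its log2 ratio was -2.53 (-3.41 to -1.75, adjusted P = 1.4e-12, Fisher's exact test). In the last exon, where most reads fell, there were 15 reads in *suvr5-1 ldl1-2 ldl2*, 56 in *ldl1-2 ldl2*, 129 in *suvr5-1* and 40 in Col-0, and in the first exon 1, 17, 24 and 4 in the same order. The rise in *suvr5-1* was not a call with each position counted once (0.56, from 61 positions, against 38 in Col-0) or on coding exons alone (0.69). The low level of the triple mutant, with reads at 10 positions, remained between -2.57 and -2.01 against the 3 other libraries with each position counted once.

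Of the 7574 genes with at least 100 reads in all and a read in each library, 3 had patterns over the 4 libraries closest to that of *HFR1*, by the root mean square difference of log2 RPKM centred on the gene. They were *KIN2* (AT5G15970, a cold-regulated gene, difference 0.12), AT1G08890 (annotated as a major facilitator superfamily protein, 0.20) and AT1G29450 (annotated as a *SAUR*-like auxin-responsive protein, 0.23). *KIN2* had 402 RPKM in *suvr5-1 ldl1-2 ldl2*, 2293 in *ldl1-2 ldl2*, 2281 in *suvr5-1* and 1399 in Col-0. Both *KIN2* and AT1G29450 have close paralogs, between which the mapping of reads could not be checked.

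*HY5*, the bZIP factor that activates light-induced genes and promotes seedling greening, was highest in the triple mutant and lowest in the double mutant. It lies on chromosome 5 (3593335 to 3595073, minus strand) with 4 merged exons and had 124 reads (33.0 RPKM) in *suvr5-1 ldl1-2 ldl2*, 35 (10.8 RPKM) in *ldl1-2 ldl2*, 94 (16.2 RPKM) in *suvr5-1* and 76 (20.5 RPKM) in Col-0. The triple mutant stood clear of the other libraries in its counting interval, and *ldl1-2 ldl2* lay below Col-0 but overlapped *suvr5-1*. The triple mutant was called upregulated against *ldl1-2 ldl2*, at 3.06-fold (log2 ratio 1.62, 1.06 to 2.20, adjusted P = 2.5e-09, Fisher's exact test), and against *suvr5-1* (log2 ratio 1.02, 0.63 to 1.43, adjusted P = 1.4e-06, Fisher's exact test). Against Col-0 the log2 ratio was 0.69 in the triple mutant (0.26 to 1.12, adjusted P = 0.0041 by Fisher's exact test). That of *ldl1-2 ldl2* was -0.93 (-1.55 to -0.33, adjusted P = 0.0059 by Fisher's exact test), and both were under 2 fold. Exon 2 held more reads than any other exon in each library, with 55 in *suvr5-1 ldl1-2 ldl2*, 25 in *ldl1-2 ldl2*, 54 in *suvr5-1* and 45 in Col-0, and few at the 3′ end. The 3′-most stretch of the merged exons, the third by length, held 0.0% to 16.9% of the *HY5* reads, against library medians of 56.0% to 61.5% over 2965 genes. The call against *suvr5-1* was lost with nuclear reads (0.73), size factors (0.89), trimmed means (0.90) and each position counted once (0.51), and *ldl1-2 ldl2* passed 2 fold against Col-0 on coding exons (-1.11), over whole genes and with genes shifted to the left or to the right (-1.06).

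**Figure D3:**
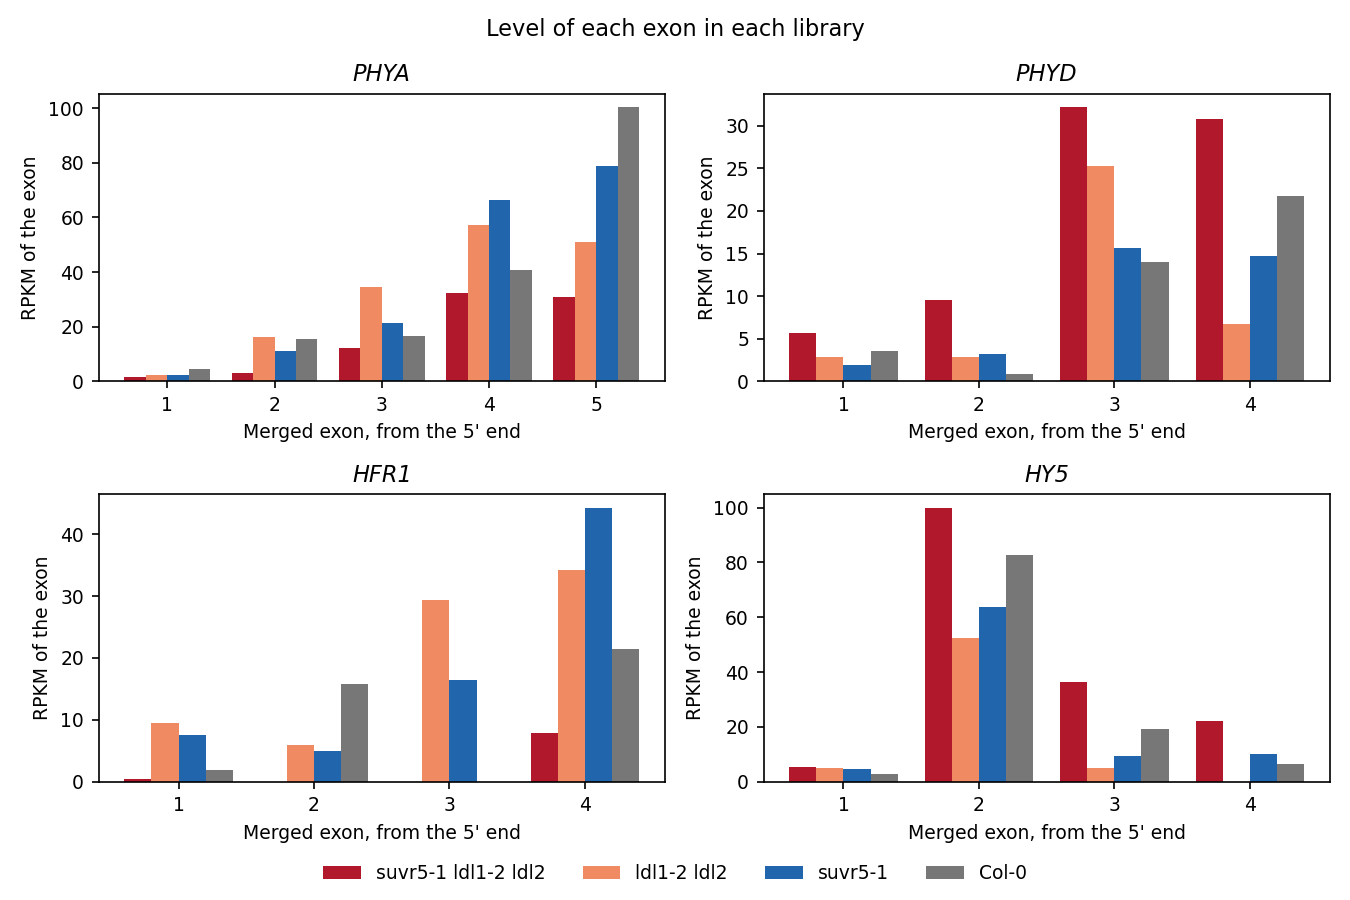
RPKM of each merged exon, numbered from the 5′ end, of *PHYA*, *PHYD*, *HFR1* and *HY5* in each library (bars from 0, no error bars, 1 library per genotype). *PHYA* was lowest in the triple mutant in all 5 exons, at 3.08 RPKM against 15.6 RPKM in Col-0 in exon 2, and *PHYD* was highest in the triple mutant in all 4 exons.

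The design crosses *suvr5-1* with *ldl1-2 ldl2*, so that the *suvr5-1* contrast can be set side by side in the mutant background (*suvr5-1 ldl1-2 ldl2* against *ldl1-2 ldl2*) and in the wild-type background (*suvr5-1* against Col-0), which share no library. For *HFR1* it was -2.53 with *ldl1-2 ldl2* and 1.04 without, a difference of -3.58 on the log2 scale (95% counting interval -4.48 to -2.68). For *HY5* it was 1.62 and -0.34, a difference of 1.95 (1.26 to 2.65). For *PHYD* it was 1.24 and -0.36, a difference of 1.59 (0.97 to 2.22). Without *ldl1-2 ldl2* the intervals of *HY5* (-0.79 to 0.12) and *PHYD* (-0.81 to 0.09) included 0. For *PIF3* the contrast was 0.82 and -0.52, a difference of 1.33 (0.52 to 2.14). The contrasts of *CRY1* (0.13 and -0.26) and *PHYE* (0.45 and -0.08) also had opposite signs in the 2 backgrounds. *PHYA* differed by -1.13 (-1.49 to -0.77), and the contrast of *PHYA* without *ldl1-2 ldl2* was not detectable at this depth. *CRY1* differed by 0.39 (0.22 to 0.56), but the counting interval leaves out the scaling. With nuclear reads as library size the contrasts of *CRY1* were 0.06 and 0.01, and with size factors -0.02 and -0.25. Those of *PHYE* with nuclear reads were 0.38 and 0.18. The opposite signs of these 2 genes thus depended on the scaling. The intervals of *PHYE* (0.54, -0.00 to 1.08) and *CRY2* (-0.13, -0.36 to 0.11) included 0. These intervals hold only for the reads of the 4 libraries, and an additive action of the mutations could not be set against variation between plants.

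**Figure D4:**
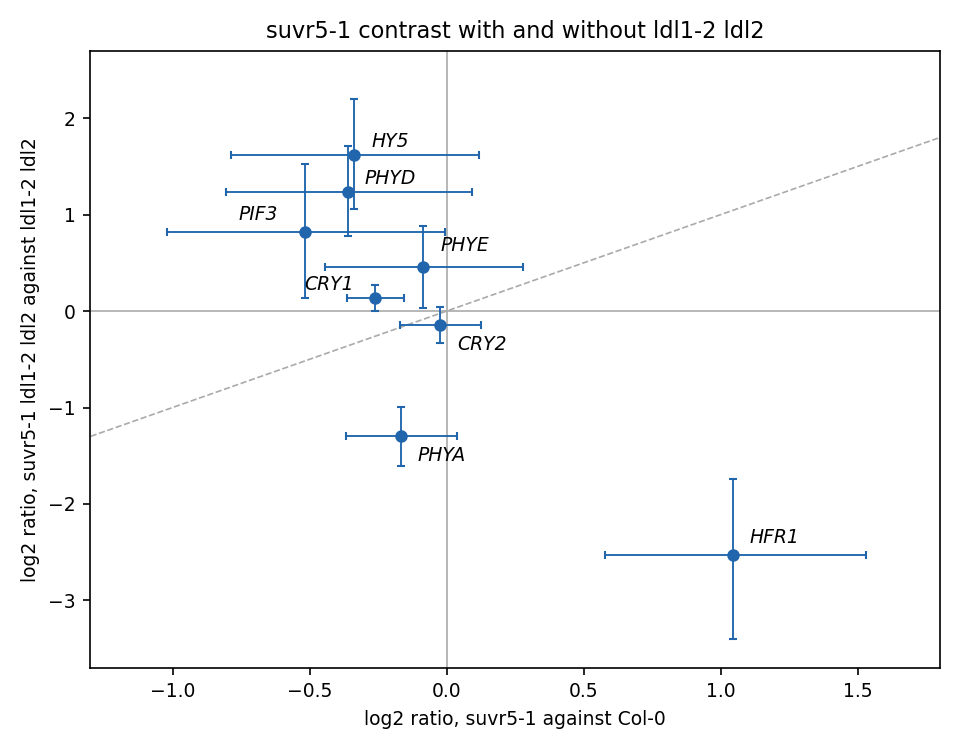
log2 ratio of *suvr5-1 ldl1-2 ldl2* against *ldl1-2 ldl2* (vertical) plotted over that of *suvr5-1* against Col-0 (horizontal) for the 8 genes, with exact 95% counting intervals and a dashed line of equal ratios. *HFR1* (1.04, -2.53) lies far below the line, *HY5*, *PHYD* and *PIF3* lie above it, and *CRY2* lies on it within its intervals.

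Beyond the 8 genes, 7 lists of 98 light-signalling genes were followed, of which 50 lie in the stretches. Like the 8 genes they were drawn up with earlier results of these libraries known. Between 45 and 48 of them had a read in a given comparison. Against Col-0, 3 of 45 were upregulated and 6 downregulated in *suvr5-1 ldl1-2 ldl2*, where 14.7% of all genes were called. In *ldl1-2 ldl2* they were 4 and 6 of 47 (21.3%, beside 15.0% of all genes), and in *suvr5-1* 8 and 1 of 48 (18.8%, beside 11.1%). Against *suvr5-1* 2 were higher and 11 lower in the triple mutant (27.1% of 48, beside 14.8%), and against *ldl1-2 ldl2* 6 and 9 (31.9% of 47, beside 15.5%). Of the other photoreceptor genes 2 of 11 could be measured. *CRY3*, an organellar cryptochrome, had 47 reads in *suvr5-1 ldl1-2 ldl2*, 9 in *ldl1-2 ldl2*, 39 in *suvr5-1* and 24 in Col-0 and was upregulated in the triple against the double mutant (log2 ratio 2.17). *HY2*, a gene of phytochrome chromophore synthesis, had 29, 42, 74 and 66 reads in the same order and was downregulated in the triple mutant against Col-0.

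Of the partners of phytochromes and cryptochromes, 10 of 13 lie in the stretches. In the triple mutant none was upregulated, and 3 of 9 tested were downregulated against *suvr5-1* (4.72% of all genes), 3 of 9 against *ldl1-2 ldl2* (5.82%) and 1 of 8 against Col-0 (4.32%). In *ldl1-2 ldl2* against Col-0 1 of 9 was upregulated (9.05% of all genes) and 1 downregulated (5.95%), and in *suvr5-1* none was called. *PKS2*, a phytochrome kinase substrate of the phototropin pathway, had 265 reads (49.2 RPKM) in *suvr5-1 ldl1-2 ldl2*, 765 (164 RPKM) in *ldl1-2 ldl2*, 1022 (123 RPKM) in *suvr5-1* and 440 (82.7 RPKM) in Col-0, the order of levels also seen in *HFR1* except that the double mutant was above *suvr5-1*. Its family member *PKS4* had 24 reads in the triple mutant against 110 in Col-0 (log2 ratio -2.21). Of the COP1, SPA, DET1 and COP9 signalosome genes, 10 of 20 in the stretches, 1 was called in each of the comparisons of *ldl1-2 ldl2* with Col-0 (*DET1*, a repressor of light responses, -1.05) and of the triple with the double mutant (*CSN7*, a signalosome subunit, 1.12), and none in the other 3. All 10 were tested, and in these 2 comparisons 15.0% and 15.5% of all genes were called. In the other 3 it was 11.1% (*suvr5-1* against Col-0), 14.7% (triple mutant against Col-0) and 14.8% (triple mutant against *suvr5-1*). Counts of 1 or none among 10 genes cannot be told from these shares. Of the related bHLH factors 4 of 13 lie in the stretches. Reads on the exons of *CIB1*, a partner of CRY2, were called lower than in Col-0 in *ldl1-2 ldl2* (-1.69) and in the triple mutant (-1.43). All 1311 of these exon bases are shared with another gene and either strand was counted, so the reads cannot be assigned to *CIB1*. Of 9 HYH and B-box genes in the stretches 8 were tested. Against Col-0, 1 was upregulated and 0 downregulated in the triple mutant (14.7% of all genes called). In *ldl1-2 ldl2* it was 1 and 2 (15.0%), and in *suvr5-1* 0 and 1 (11.1%). *BBX32*, whose protein restrains HY5 activity, had 127 reads in the triple mutant, 66 in *ldl1-2 ldl2* and 28 in Col-0. It was upregulated against Col-0 in both mutants (2.16 and 1.43). *BBX30*, a small B-box protein, had 40 in *suvr5-1* against 84 in Col-0 (-1.71).

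Of the shade-induced genes 9 of 14 lie in the stretches, and those called were upregulated in *suvr5-1* and *ldl1-2 ldl2* and downregulated in the triple mutant. In *suvr5-1* 5 were upregulated against Col-0 and none downregulated, where 5.92% of all genes were upregulated, and the median log2 ratio was 1.68 with genes without a read set at 3 reads, beside 0.02 over all genes. That median is the ratio of *YUC2*, not a call, with 5 reads in *suvr5-1* and 1 in Col-0. *YUC8* (26 reads) and *YUC9* (13) had none in Col-0. In *ldl1-2 ldl2* 2 of 8 tested were upregulated (9.05% of all genes), with a median of 0.78 beside -0.03. In the triple mutant none was upregulated and 3 of 7 were downregulated against Col-0 (4.32% of all genes, median -1.98 beside 0.15), 7 of 9 against *suvr5-1* (4.72%, median -1.99 beside 0.16) and 4 of 8 against *ldl1-2 ldl2* (5.82%, median -1.70 beside 0.16). Some of these calls rest on few reads, as for *BEE1* (1 read, 12 in Col-0) and *XTH15* (none, 14 in *suvr5-1*). *IAA19*, an auxin-response repressor gene, had 25 reads (8.28 RPKM) in *suvr5-1 ldl1-2 ldl2*, 70 (26.8 RPKM) in *ldl1-2 ldl2*, 153 (32.8 RPKM) in *suvr5-1* and 11 (3.69 RPKM) in Col-0. *HAT1*, a homeodomain-leucine zipper gene, had 33 reads (7.64 RPKM) in *suvr5-1 ldl1-2 ldl2*, 302 (80.9 RPKM) in *ldl1-2 ldl2*, 289 (43.4 RPKM) in *suvr5-1* and 221 (51.8 RPKM) in Col-0. It was low in the triple mutant alone, and *IAA19* was high in the single and the double mutant. *ATHB2*, a classical shade marker of the same class, had 226 reads (56.7 RPKM) in *suvr5-1 ldl1-2 ldl2*, 365 (106 RPKM) in *ldl1-2 ldl2*, 543 (88.3 RPKM) in *suvr5-1* and 157 (39.9 RPKM) in Col-0, and was called upregulated in the single and the double mutant. Without the negative binomial test, the settings gave 3 to 6 upregulated in *suvr5-1*, and 1 to 4, 5 to 7 and 2 to 5 downregulated in the triple mutant against Col-0, *suvr5-1* and *ldl1-2 ldl2*. With that test they were 0, 1, 2 and 1, and the 2 genes upregulated in *ldl1-2 ldl2* were no longer called. *IAA29*, another auxin-response repressor gene, had 3 reads in *suvr5-1 ldl1-2 ldl2*, 5 in *ldl1-2 ldl2*, 96 in *suvr5-1* and 17 in Col-0. It was upregulated in *suvr5-1* (log2 ratio 1.85), while its log2 ratio in the double mutant was -1.57 and not a call.

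Light-induced genes, 6 of 12 in the stretches, were led by *CHS*, chalcone synthase, the entry enzyme of flavonoid synthesis. It had 422 reads (82.9 RPKM) in *suvr5-1 ldl1-2 ldl2*, 21 (4.77 RPKM) in *ldl1-2 ldl2*, 369 (47.0 RPKM) in *suvr5-1* and 22 (4.37 RPKM) in Col-0. Both libraries carrying *suvr5-1* were high, with log2 ratios to Col-0 of 4.24 (3.63 to 4.93) in the triple mutant and 3.43 (2.81 to 4.12) in *suvr5-1*. *ELIP1*, an early light-induced protein of the chloroplast, had 83 reads (26.8 RPKM) in *suvr5-1 ldl1-2 ldl2*, none in *ldl1-2 ldl2*, 24 (5.03 RPKM) in *suvr5-1* and 27 (8.83 RPKM) in Col-0, which puts the triple mutant at least 23.9-fold above *ldl1-2 ldl2*, counted as 3 reads. The highest and the lowest library of *ELIP1* were those of *HY5*, as for *UGT84A1* (14 reads in *suvr5-1 ldl1-2 ldl2*, none in *ldl1-2 ldl2*). The rest of the list did not clearly share both with *HY5*. *CHS* was also highest in the triple mutant, but its levels in Col-0 (4.37 RPKM) and *ldl1-2 ldl2* (4.77 RPKM) were too close to order. *ELIP2* was highest in *ldl1-2 ldl2* (8.08 RPKM), near the triple mutant (6.25 RPKM). *FLS1* and *RUP2* were highest in *suvr5-1* (3.22 and 19.5 RPKM), with *RUP2* at 17.4 RPKM in the triple mutant. Over the list, 2 of 6 were upregulated in the triple mutant (10.3% of all genes) and 2 in *suvr5-1* (5.92%) against Col-0, and 1 was downregulated in *ldl1-2 ldl2* (5.95%). With the negative binomial test each of these 3 counts was 1.

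**Figure D5:**
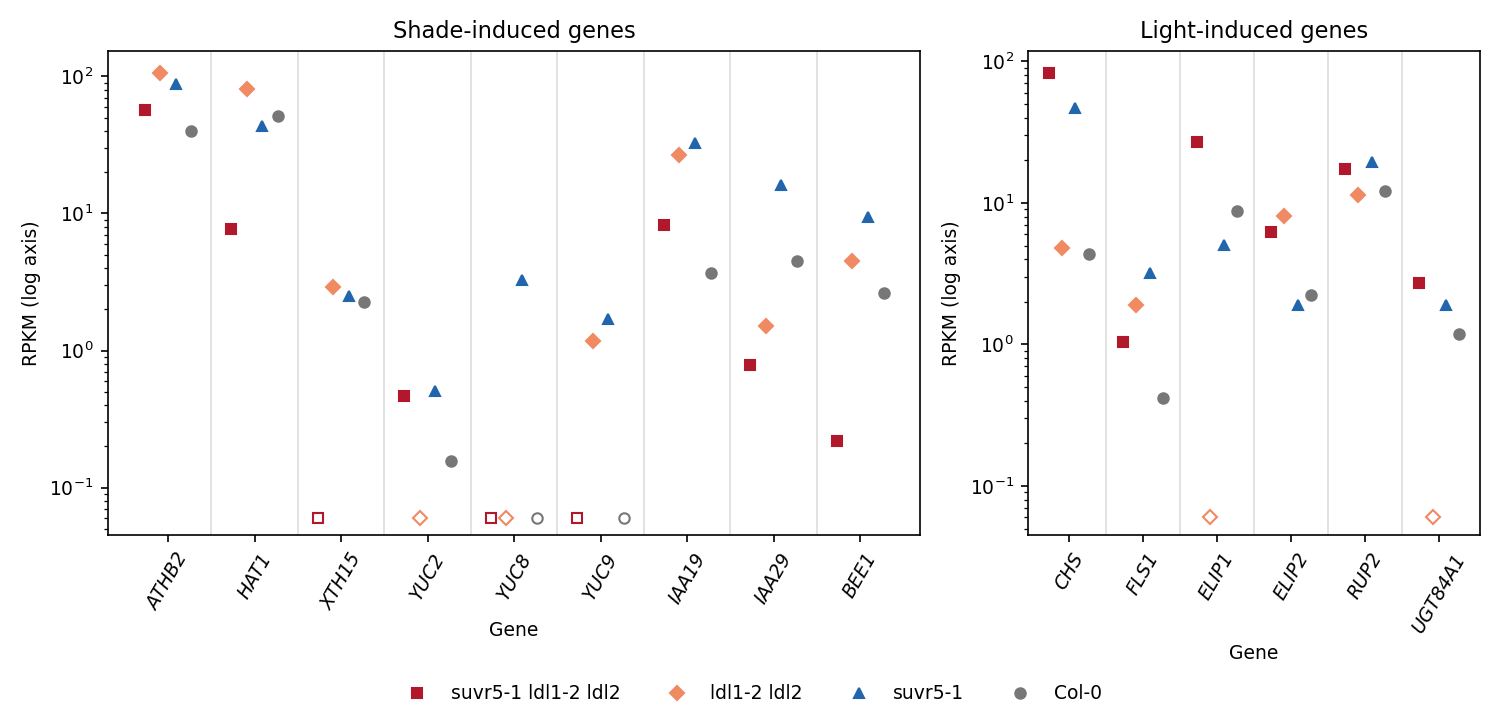
RPKM (log axis) of the 9 shade-induced and 6 light-induced genes in the stretches in each library, with open symbols at the foot of the plot for genes without a read. *HAT1* was lowest in *suvr5-1 ldl1-2 ldl2* (7.64 RPKM, against 51.8 RPKM in Col-0), and *CHS* was high in both libraries carrying *suvr5-1* (82.9 and 47.0 RPKM, against 4.37 RPKM in Col-0).

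Other expression programmes also differed between these libraries. Of 7 clock genes in the stretches, *LHY*, a morning gene, had 450 reads (44.0 RPKM) in *suvr5-1 ldl1-2 ldl2*, 143 (16.2 RPKM) in *ldl1-2 ldl2*, 467 (29.6 RPKM) in *suvr5-1* and 329 (32.6 RPKM) in Col-0. *PRR7*, a later-phased repressor, had 118 reads (12.2 RPKM), 254 (30.4 RPKM), 257 (17.2 RPKM) and 303 (31.7 RPKM) in that order of libraries. *LHY* and *RVE1*, a relative that acts in the morning too, were downregulated in *ldl1-2 ldl2* against Col-0 (log2 ratios -1.01 and -1.91) and upregulated in the triple mutant against *ldl1-2 ldl2* (1.44 and 1.87), where *PRR7* and *GI* were downregulated. *RVE1* had 25 reads in *ldl1-2 ldl2* and shares 225 exon bases with another gene. Over the 7, 2 were downregulated in *ldl1-2 ldl2* (5.95% of all genes) and 1 in the triple mutant (4.32%) against Col-0. Against *ldl1-2 ldl2* the triple mutant had 2 upregulated (9.73%) and 2 downregulated (5.82%). Between *suvr5-1* and Col-0 (11.1% of all genes called), and between the triple mutant and *suvr5-1* (14.8%), none of the 7 was called. With 7 genes, no calls cannot be told from those shares. Of 6 senescence markers 2 could be measured, and they moved in opposite directions in each mutant. *WRKY53*, a regulator of leaf senescence that shares 311 exon bases with another gene, had 460 reads in *suvr5-1 ldl1-2 ldl2*, 122 in *ldl1-2 ldl2*, 159 in *suvr5-1* and 22 in Col-0, and *SEN1*, a dark-induced gene, had 404, 1035, 1631 and 2365 in the same order. The part of clock phase, leaf age or leaf composition in the levels of the 8 genes was not tested.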

How the data were processed

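Poly(A) RNA of leaves was sequenced by the authors with a Genome Analyzer (Illumina), and Bowtie is the mapper in the submitters' processing notes. Version, settings and assembly are not given in the sources used here. The deposited files hold positions, 1 line per read with chromosome, strand and leftmost base, and no counts per gene.

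Displacement between reads and TAIR10.1 exon starts was measured in 478 windows of 250 kb, and 205 windows were kept where it was at most 30 bp (z-score at least 5) in the window and its neighbours. Reads were counted on merged RefSeq exons on either strand. Counting and tests used Python 3.11.15, numpy 2.4.6 and scipy 1.17.1, and were tested on simulated data. Ratios carry exact Clopper-Pearson and levels exact Poisson 95% intervals, without molecular identifiers to tell molecules from copies. Differences of contrasts carry normal intervals of the log ratio. Alternatives were nuclear reads as library size, size factors, trimmed means, at least 10 reads, each position once, whole genes, coding exons, exons without shared bases, genes shifted by 27 bp either way, and an exact negative binomial test. Symbols of the lists were matched to RefSeq by locus.

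The 8 genes and all lists were chosen with earlier results of these data known. From the lists, at most 3 called genes per list and comparison with the largest ratio and at least 100 reads in the 2 libraries were named. *CRY3* and *HY2* fall outside this rule and were named after their values were seen, as the measured genes of their list. So do *YUC2*, *YUC8*, *YUC9*, *BEE1*, *XTH15*, *UGT84A1*, *ELIP2*, *FLS1*, *RUP2* and the leaf markers, named to show the limits of a list. Genes patterned like *HFR1* were the 3 with the smallest difference. Genes outside the stretches were not analysed here.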

Additional observations from a re-analysis of the deposited data

Results flagged for a closer look

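For 3 of the 8 genes the same contrast went opposite ways in the 2 backgrounds, with counting intervals that excluded 0 on either side. The share of all genes with such a reversal was not computed, so this count has no background to be set against. The *suvr5-1* contrast of *HFR1* was a log2 ratio of -2.53 in the *ldl1-2 ldl2* background and 1.04 in the wild-type background, and its *ldl1-2 ldl2* contrast was -2.71 in the *suvr5-1* background and 0.87 in the wild-type background. The *suvr5-1* contrast of *PIF3* was 0.82 in the *ldl1-2 ldl2* background and -0.52 in the wild-type background, where the interval reached -0.01. Neither *PIF3* contrast passed the test (adjusted P = 0.043 and 0.11, Fisher's exact test). The *ldl1-2 ldl2* contrast of *HY5* was 1.02 in the *suvr5-1* background and -0.93 in the wild-type background. With each position once, those of *HY5* were 0.51 and -0.95, with adjusted P of 0.22 and 0.12 (Fisher's exact test). The *HFR1* contrasts in the wild-type background were then 0.56 and 0.48, with adjusted P of 0.28 and 0.44 (Fisher's exact test). Each background is 1 library a genotype, so these differences were set against counting error and not tested against variation between plants.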

How the results depend on the processing

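Of 440 log2 ratios of the 8 genes recomputed under 11 alternatives, 396 kept their direction and their side of the call, 25 were no longer called, 7 became calls and 12 changed sign. Among them the 40 with at least 10 reads and the 40 of the negative binomial test keep the ratio by design. Those settings could alter only the call. Exons without shared bases altered the exons of *PHYE* alone. Those that changed sign were all small. With nuclear reads as library size, *suvr5-1* against Col-0 gave 0.10 for *PHYA*, 0.18 for *PHYE*, 0.0062 for *CRY1* and 0.24 for *CRY2*, and the triple mutant against *suvr5-1* -0.0831 for *PHYE*. With each position once, *HY5* was 0.0017 in *suvr5-1* against Col-0, and *PHYE* was -0.17 and -0.0853 in the triple mutant against Col-0 and *suvr5-1*. Coding exons gave 0.21 for *PHYD* in *ldl1-2 ldl2* against Col-0, a right shift 0.0056 for *CRY2* in *suvr5-1* against Col-0, and size factors and trimmed means -0.0177 and -0.0133 for *CRY1* in the triple against the double mutant. The number of genes called in *suvr5-1* against Col-0 was 0 with each position once, coding exons or the negative binomial test. In *ldl1-2 ldl2* against Col-0 it was 0 with nuclear reads, size factors or the negative binomial test, and 2 over whole genes or shifted left. In the triple mutant it was 2 against *suvr5-1* with nuclear reads or each position once and 3 with size factors or trimmed means, 3 against Col-0 on coding exons (*PHYD* gained), 5 against *ldl1-2 ldl2* over whole genes or shifted left (*PIF3* gained) and 3 with each position once, and 0 with the negative binomial test against Col-0, *suvr5-1* and *ldl1-2 ldl2*. Pairwise orders of levels within a library cannot change with its library size. Under settings that change the counts, 103 (coding exons) to 112 (exons without shared bases, left shift) of 112 were the same. Nuclear reads moved the median of all genes by 0.27 in *suvr5-1* against Col-0 and by -0.30 in the triple mutant against *suvr5-1*, and the upregulated share of called genes to 76.8% (otherwise 53.5%) and 42.9% (otherwise 68.1%). Size factors moved the median by -0.12 to -0.15 in the comparisons of the triple mutant, and that share to 59.8% against Col-0 (otherwise 70.5%), 57.0% against *suvr5-1* and 49.6% against *ldl1-2 ldl2* (otherwise 62.6%). The negative binomial test was chosen after seeing the data in place of edgeR's, which was planned and not run since the deposited files hold positions. Size factors and trimmed means were computed without DESeq2 and edgeR. No paired analysis was possible because each genotype has 1 library, and no replicate could be left out. With 16 reads, *HFR1* in the triple mutant had a 95% counting interval of 2.01 to 5.71 RPKM.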
